A study of Mus musculus with 20 samples.

Results

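The 43 genes described here encode proteins that copy the genome and divide the cell. They were taken by gene symbol from the deposited table of 48440 mouse genes, and each symbol was found there. By role they comprise 12 genes of replication licensing and the replication fork, 4 of nucleotide supply, 8 cyclins, cyclin-dependent kinases (CDKs) and the phosphatase Cdc25c, 5 transcription factors, 2 chromosome proteins, 9 mitotic kinases, checkpoint and spindle proteins, and 3 centromere proteins. Of the 43, 40 passed the filter on low values (at least 0.5 RPKM in at least 2 libraries) and were tested among 15981 genes. Cdc6, E2f2 and Cenpf did not pass and are given as levels only. No member passed the filter only through 1 manipulated group, though Kif11, Cdc25c and Bub1 passed only through libraries of the Foxk1 set. RPKM is the number of reads scaled to exon length and to the total of reads assigned to genes in that library.

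A dividing cell loads the MCM helicase onto replication origins with the help of Cdc6 and Cdt1, activates it with Cdc45 and the GINS complex, and copies DNA on forks held by the sliding clamp Pcna. Cyclin E and cyclin A with Cdk2 drive entry into and passage through S phase, and cyclin B with Cdk1 drives mitosis. Genes of the first phase are classical targets of E2F factors, and many mitotic genes are held silent in resting cells by the DREAM complex, which reads the cell cycle homology region (CHR) in their promoters, and are activated by B-Myb and Foxm1. 3T3-L1 preadipocytes divide for a few rounds early in differentiation and then leave the cell cycle, so low levels of these genes are usual in mature fat cells.

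All libraries came from 3T3-L1, an established mouse (Swiss) fibroblast-like line that turns into adipocytes in culture, and all cells were made to differentiate alike, with troglitazone (10 µM), insulin (5 µg/ml), dexamethasone (1 µM) and the phosphodiesterase inhibitor isobutyl methylxanthine (0.5 mM). From day 4 they had only insulin, and day 6 brought plain growth medium. The 8 groups were constituent overexpression of FOXK1 and its empty vector control (3 libraries each), Foxk1 shRNA and its scrambled shRNA control (3 each), and the same 4 groups for Foxk2 (2 libraries each). The vectors, the shRNA sequences and the day of harvest are not given in the sources used here. Foxk1 and Foxk2 are paralogous forkhead transcription factors. Each manipulation was compared with its own control, so no libraries are shared between the 4 comparisons. Whether replicates came from different cultures is not given, so every p-value reflects only how far these libraries scatter, which may be technical. That scatter was estimated over all 8 groups together, not for the groups compared alone. The 2 libraries of Foxk2 overexpression and those of Foxk2 shRNA were less alike than other replicates. Chi-square of reads per degree of freedom was 51 and 32.1 for them, against 2.71 to 10.9 for other pairs.

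The manipulated genes went with 3 of the 4 labels. Foxk1 stood at 8.80, 8.18 and 7.98 RPKM in the scrambled controls and 3.35, 2.95 and 3.46 RPKM with Foxk1 shRNA. In the libraries labelled Foxk1 overexpression it stood at 6.16, 6.06 and 6.08 RPKM, below the 7.11, 7.48 and 8.04 RPKM of their controls (-0.28 ± 0.0550, SE, adjusted p = 0.000515, on the log2 scale), so that label was not borne out by the gene's own reads and is kept here only as a name. Only reads of the mouse gene are counted here and the construct is not given, so they cannot show whether FOXK1 protein was raised. Foxk2 stood at 13.4 and 13.3 RPKM in its empty vector controls and 19.9 and 19.98 RPKM in Foxk2 overexpression. With Foxk2 shRNA it was at 3.25 and 3.29 RPKM against 13.1 and 12.7 RPKM. The 12 libraries of the Foxk1 set held 16739763 to 20772823 reads assigned to genes and the 8 of the Foxk2 set held 31378224 to 36157008. The first principal component of all tested genes carried 79.5% of the variance and parted these sets, controls included. The 10 adipocyte markers summed to 7853 to 14337 RPKM per library, and the adipocyte hormone Adipoq averaged 668 to 3043 RPKM per group. Immune markers summed to at most 3.80 RPKM and endothelial markers to at most 0.372 RPKM, with Ptprc at or under 0.00273 RPKM.

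Promoters of 5 of these genes are printed to show where the short elements searched for lie in genes that moved differently. RefSeq (GRCm38.p6) gave the 250 bases before the transcription start for 34 of the 43 genes, in 37 windows. They were searched on both strands for the CCAAT box (CCAAT), for the CHR (TTTGAA), for E2F sites (TTTGGCGC, TTTCGCGC or TTTCCCGC) and for a forkhead element (GTAAACA). Capitals mark matches on either strand, and each sequence runs 5′ to 3′ on the gene's strand and ends at the base before the start. The proliferation marker Mki67 (chr7:135716380-135716629, minus strand) and cyclin B2 (Ccnb2, chr9:70421555-70421804, minus strand) rose in both overexpression comparisons below, as did the helicase subunit Mcm5 (chr8:75109259-75109508, plus strand). Cdk1 (chr10:69352913-69353162, minus strand) holds 3 of the 4 elements and passed the test nowhere, and Cdc45 (chr16:18811973-18812222, minus strand) fell in both knockdowns and holds the only forkhead match. Cdk2 and Ccne2 also fell in both knockdowns, and the Cdk2 window holds no forkhead match while Ccne2 has no window.
Mki67: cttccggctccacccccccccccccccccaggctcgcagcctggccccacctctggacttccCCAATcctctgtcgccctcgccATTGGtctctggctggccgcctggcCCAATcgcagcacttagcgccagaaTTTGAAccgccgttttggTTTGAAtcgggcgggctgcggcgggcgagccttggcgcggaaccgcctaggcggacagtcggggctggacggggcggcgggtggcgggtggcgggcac
Ccnb2: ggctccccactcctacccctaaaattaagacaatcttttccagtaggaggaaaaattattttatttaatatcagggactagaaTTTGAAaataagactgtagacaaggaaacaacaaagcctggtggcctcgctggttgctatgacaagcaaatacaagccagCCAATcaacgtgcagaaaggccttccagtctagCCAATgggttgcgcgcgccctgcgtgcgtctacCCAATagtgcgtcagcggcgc
Mcm5: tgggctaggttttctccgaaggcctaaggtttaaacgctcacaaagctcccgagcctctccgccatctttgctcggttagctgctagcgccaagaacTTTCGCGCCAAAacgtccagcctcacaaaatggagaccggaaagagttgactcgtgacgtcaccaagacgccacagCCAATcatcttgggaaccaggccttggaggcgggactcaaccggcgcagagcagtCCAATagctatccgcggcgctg
Cdk1: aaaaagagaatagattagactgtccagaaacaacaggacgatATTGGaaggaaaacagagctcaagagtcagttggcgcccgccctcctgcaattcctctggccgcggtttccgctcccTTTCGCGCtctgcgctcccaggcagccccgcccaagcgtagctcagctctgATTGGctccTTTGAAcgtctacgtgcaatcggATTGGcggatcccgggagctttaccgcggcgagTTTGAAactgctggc
Cdc45: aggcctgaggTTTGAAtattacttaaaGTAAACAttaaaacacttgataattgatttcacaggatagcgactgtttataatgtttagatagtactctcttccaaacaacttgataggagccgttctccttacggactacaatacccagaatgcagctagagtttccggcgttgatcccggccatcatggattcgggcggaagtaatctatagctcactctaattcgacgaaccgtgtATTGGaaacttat
In Mki67 the CCAAT boxes lie farther from the start than the CHR matches, and in Ccnb2 they lie nearer. In Mcm5 the capitals before the CCAAT boxes are a pair of overlapping E2F matches on opposite strands.

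The CCAAT box was found in 28 of the 37 windows (75.7%), against 33.8% of all 32851 mouse windows of that length. E2F letters were found in 7 windows (18.9%), those of Cdc6, Mcm5, Mcm6, Mcm7, Cdk1, Cdk2 and E2f3, against 1.53% of all windows. The CHR was found in 10 windows (27.0%) against 16.0%, and the forkhead element in 1 (2.70%) against 3.17%. These are matches of letters, not measured binding, and a gene without a match may carry the element outside the window or in another spelling.

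**Figure D1:**
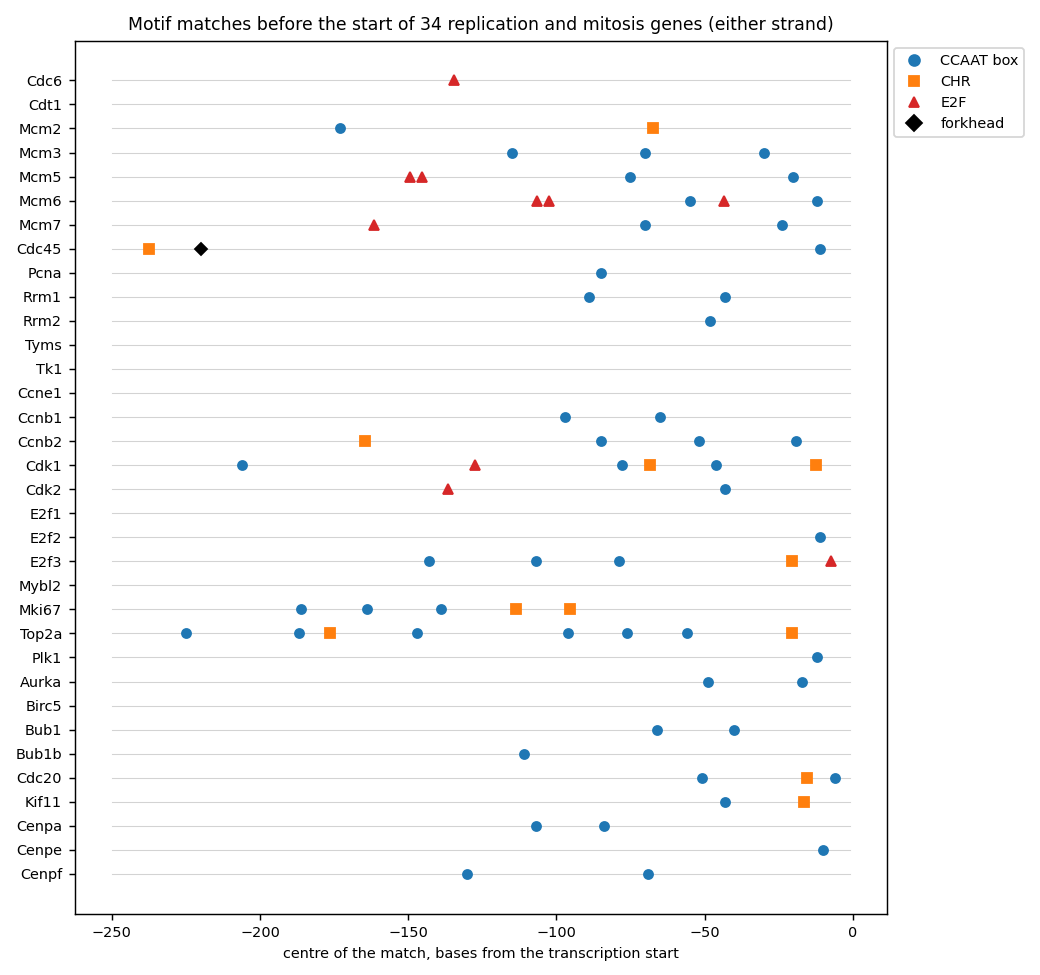
Positions of the motif matches in the first RefSeq window of each of 34 genes, as the distance in bases from the centre of the match to the transcription start, with 1 symbol per motif and both strands pooled. CCAAT boxes lie in most rows, E2F matches in 7 genes, and the single forkhead match belongs to Cdc45.

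Across all 20 libraries these genes were expressed at low levels, and each of the 43 had reads in every library. Only 6 averaged 5 RPKM or more: Pcna (19.5), Mcm7 (11.1), Cdk2 (10.7), E2f1 (7.85), Mcm4 (6.90) and Cdc45 (5.75). A further 24 averaged between 1 and 5 RPKM, and 13 averaged under 1 RPKM, among them Mki67 (0.926) and the mitotic genes Bub1 (0.364) and Cenpf (0.212). These 6 were thus replication and G1/S genes, on a scale that is per length. Below them the roles were mixed in level. The mitotic genes Kif20a (2.92) and Cdc20 (2.72) averaged above Mcm3 (2.70), and the lowest of all were Cdc6 (0.197) and E2f2 (0.143). The recovered reads behind a value ran from 2 (Cdc25c with Foxk2 shRNA) to 2083 (Mcm7 in a Foxk2 empty vector control).

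The control libraries already differed in these genes before any manipulation was compared. In the 6 Foxk1-set controls against the 4 Foxk2-set controls, 23 of 40 tested members were higher without overlap of the ranges and 4 were lower, where 28.4% of all tested genes were higher and 21.5% lower. The ratio of means ran from 0.577 (Cdc45) to 6.32 (Gins2), with a median of 1.85 over the 43 genes, and 37 of the 43 had the higher mean in the Foxk1 set. Cyclin A2 (Ccna2) was 6.23 times, Bub1 4.80 times and Mki67 4.63 times as high there. The sets differ in depth, replicate number and many other genes, so factor, batch and culture cannot be told apart in that ratio. Gins2 is a special case: 67.3% of its exon bases lie opposite exons of Gse1, and no strand setting is given, so its reads cannot be told apart from those of Gse1, which averaged 4.29 and 4.49 RPKM in the Foxk1-set controls and 4.10 and 3.22 RPKM in the Foxk2-set controls.

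Within the Foxk1 set, scrambled shRNA controls stood above empty vector controls without overlap of the ranges in 27 of 40 members, and below in 3. Of all genes, 30.3% and 19.0% did so. The median ratio was 1.47, and cyclin B1 (Ccnb1, 2.38 times), cyclin E1 (Ccne1, 2.35 times) and Bub1 (2.27 times) had the highest ratios. In the Foxk2 set the same comparison gave 7 higher and 12 lower members, against 33.9% and 26.3% of all genes, with a median ratio of 0.957. In the Foxk1 set most of these genes thus started from a higher level in the knockdown comparison than in the overexpression comparison.

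**Figure D2:**
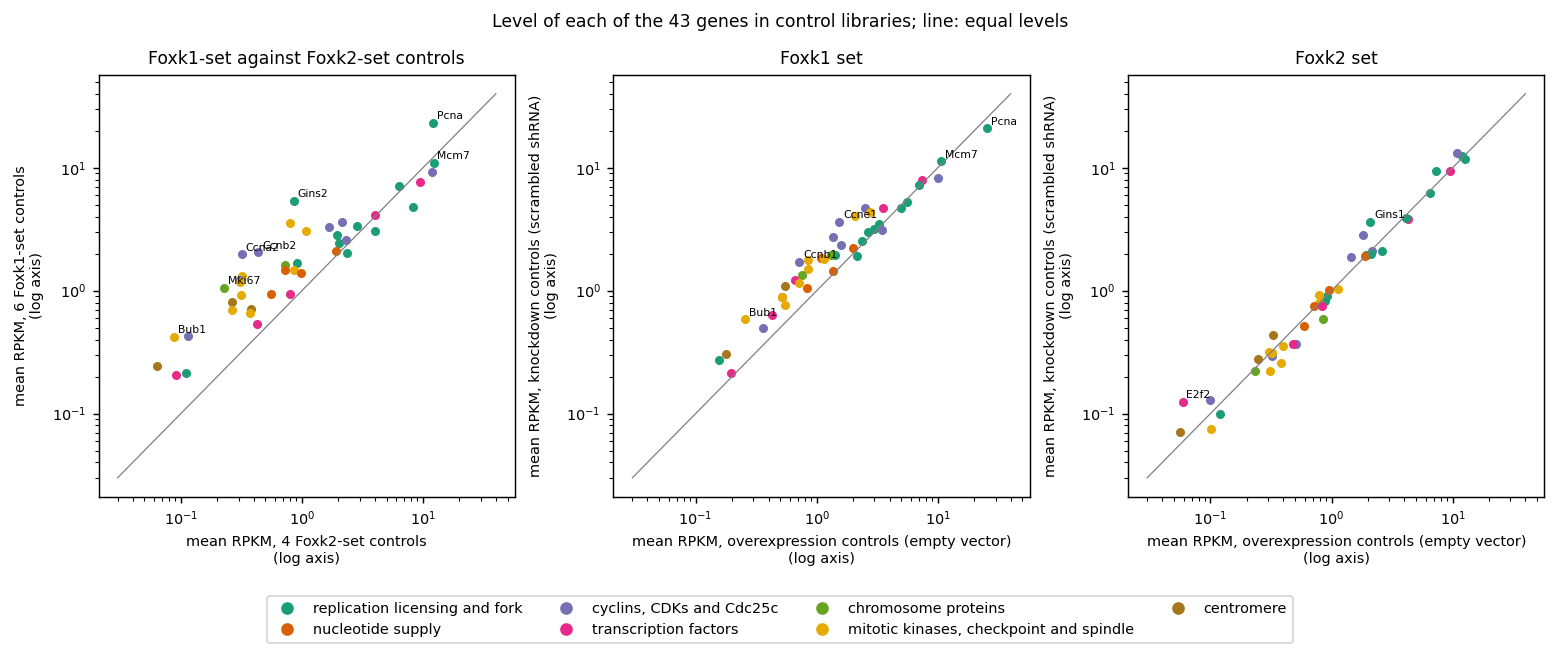
Mean level of each of the 43 genes (RPKM, log axes) in control libraries: Foxk1-set against Foxk2-set controls (6 and 4 libraries), then scrambled shRNA against empty vector controls in the Foxk1 set (3 and 3) and the Foxk2 set (2 and 2), coloured by role, with a line of equal levels. Most points lie above the line in the first pair of panels, where the median ratios are 1.85 and 1.47, and around it in the Foxk2 set (0.957).

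In the libraries labelled Foxk1 overexpression, most of these genes stood above the empty vector controls. Of 40 tested members, 28 rose, 2 fell (E2f1 and Mcm4) and 10 did not pass the test, with a median log2 fold change of 0.47. Of all genes tested, 24.1% rose and 23.8% fell, with a median of 0. Fold changes are differences of log2(RPKM + 0.5), which understates changes of genes near or under 0.5 RPKM, and a gene was called where the adjusted p was under 0.05 (limma, Benjamini-Hochberg over all 15981 genes). All 9 mitotic kinase, checkpoint and spindle genes rose, as did both chromosome proteins and both tested centromere genes. In the same libraries the adipocyte markers summed to 9251 to 9298 RPKM against 13984 to 14337 RPKM in the controls, and the 10 preadipocyte and fibroblast markers to 230 to 242 against 611 to 748 RPKM. Of the 10 adipocyte markers, 7 were called lower and 1 higher (Cebpa, with means of 152 and 189 RPKM). Of 9 tested preadipocyte and fibroblast markers, 8 were called lower and 0 higher. Whether those shifts have a part in the counts was not tested. In such bulk samples, fewer cells of a type and less RNA per cell cannot be told apart. When any 1 library was left out, 27 to 29 members were called higher.

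With Foxk1 shRNA, few of these genes changed. Of 40 tested members, 2 rose (Mcm4 and Rrm1), 3 fell (Cdc45, Ccne2 and Cdk2) and 35 did not pass, with a median log2 fold change of 0.10, against 20.4% of all genes higher and 15.5% lower and a median of 0.02. Unadjusted p was under 0.05 for 11 of the 40 members, and for 7037 of all 15981 genes tested. The preadipocyte and fibroblast markers summed to 2087 to 2183 against 1044 to 1137 RPKM in the controls, and the adipocyte markers stood at 10984 to 11578 against 13018 to 13650 RPKM. Of the 10 adipocyte markers, 7 were called lower and 0 higher, and all 9 tested preadipocyte and fibroblast markers were called higher. The part of these markers in the counts was not tested. Without knockdown replicate 2, 4 members were called higher.

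With Foxk2 overexpression, 22 of 40 members rose, 2 fell (E2f1 and Mcm7) and 16 did not pass, with a median log2 fold change of 0.26. Among all genes 23.0% rose and 22.0% fell, and the median was 0.00157. Of the cyclin group 6 of 8 genes rose, as did both tested centromere genes and 6 of the 9 mitotic kinase, checkpoint and spindle genes. The preadipocyte and fibroblast markers summed to 215 to 228 against 462 to 469 RPKM in the controls, and the adipocyte markers to 7853 to 7859 against 12178 to 12328 RPKM. Of the 10 adipocyte markers, 7 were called lower and 2 higher. The means of Retn went from 182 to 391 RPKM and those of Lpl from 1820 to 2181 RPKM. Of 9 tested preadipocyte and fibroblast markers, 8 were called lower and 0 higher. The part of these markers in the counts was not tested. With 2 libraries a group the count depended on each: 14 members were called higher without overexpression replicate 2, and 14 without control replicate 2. The rises of Mcm3, Mcm5, Mcm6, Pcna, Ccnb2, Ccne2, Cdc25c, Aurka, Bub1 and Cdc20 were each lost without at least 1 of the 4 libraries, and the other 14 of the 24 calls held without each.

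With Foxk2 shRNA, 2 of 40 members rose (Rrm1 and Top2a), 6 fell (Cdc45, Gins1, Pcna, Ccne2, Cdk2 and Cenpe) and 32 did not pass, with a median log2 fold change of -0.08. Among all genes 18.0% rose and 15.7% fell, and the median was 0. Ranges did not overlap, and were lower with the shRNA, for 17 of the 40 members, where 32.5% of all genes did so. For 11 of the 40 they did not overlap and were higher. The preadipocyte and fibroblast markers summed to 889 to 916 against 293 RPKM in the controls, and the adipocyte markers to 11288 to 11605 against 13319 to 13431 RPKM. Of the 10 adipocyte markers, 4 were called lower and 1 higher. The means of Plin1 (254 and 274 RPKM) and Lipe (242 and 280 RPKM) went against the sum. All 9 tested preadipocyte and fibroblast markers were called higher. The part of these markers in the counts was not tested. No member was called higher without knockdown replicate 2 or without control replicate 1, and 4 to 6 were called lower when any 1 library was left out.

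**Figure D3:**
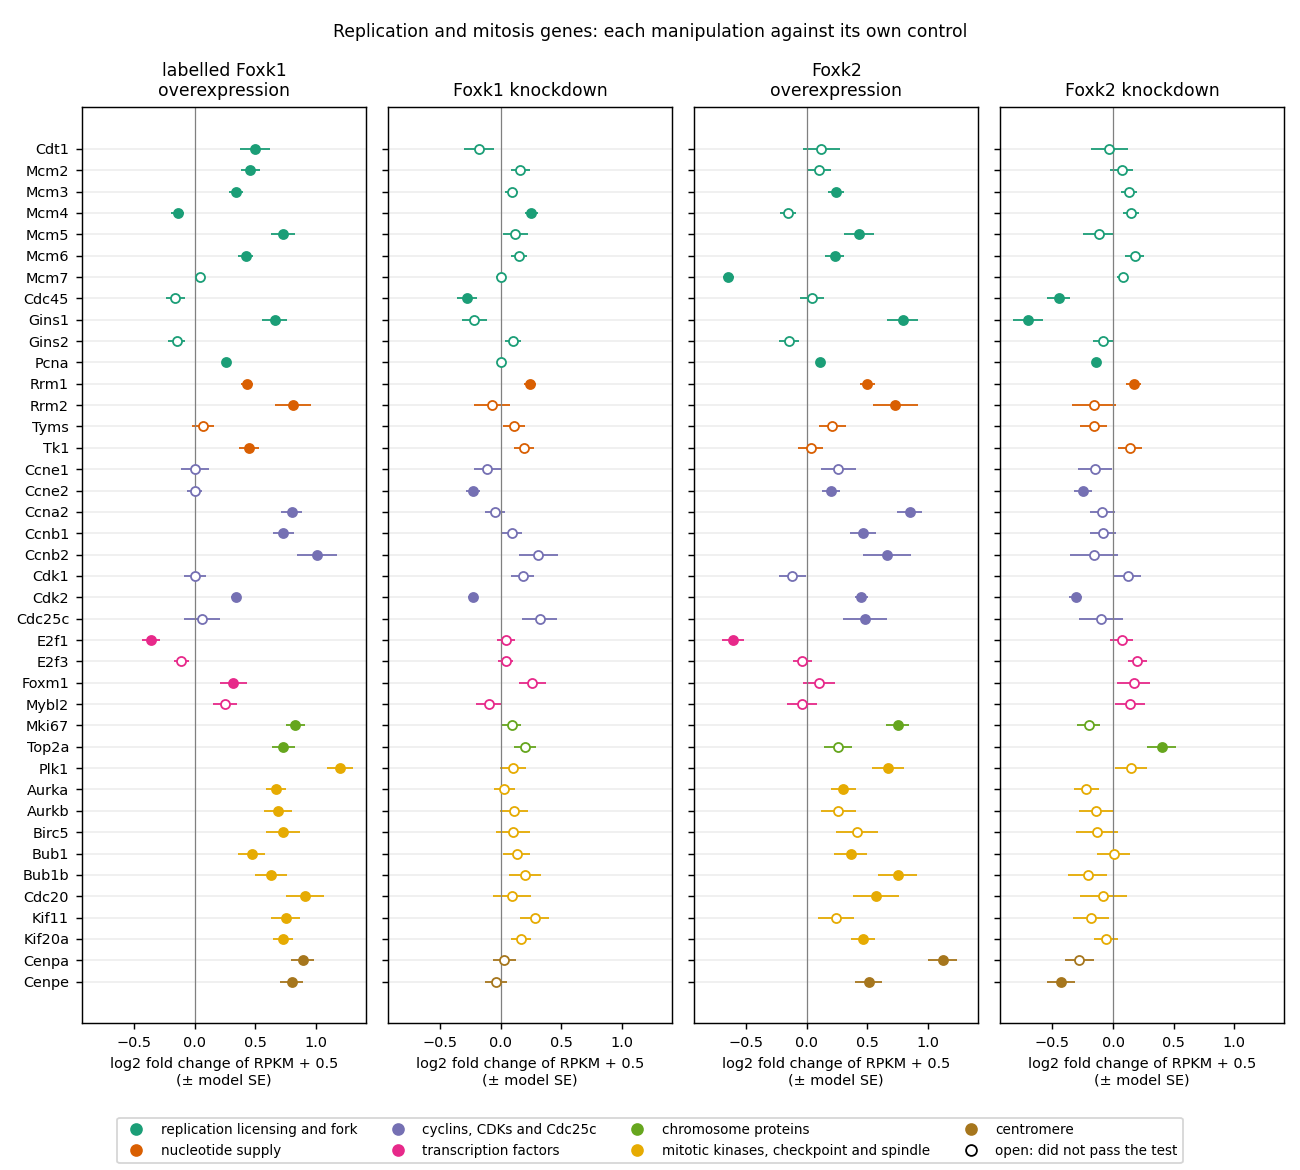
Log2 fold change of RPKM + 0.5 (± SE of the model) of the 40 tested genes in the 4 comparisons, coloured by role, with filled points for genes that passed the test and open points for those that did not. Filled points lie to the right of 0 for 28 genes in the libraries labelled Foxk1 overexpression and for 22 with Foxk2 overexpression, and 5 and 8 genes are filled in the knockdowns.

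The rises in the overexpression comparisons were largely shared. The 20 members higher in both were Mcm3, Mcm5, Mcm6, Gins1, Pcna, Rrm1, Rrm2, Ccna2, Ccnb1, Ccnb2, Cdk2, Mki67, Plk1, Aurka, Bub1, Bub1b, Cdc20, Kif20a, Cenpa and Cenpe. They make up 71.4% of those higher under the Foxk1 label and 90.9% of those higher with Foxk2. Over all genes, 2152 were higher in both, which is 55.9% and 58.5% of the lists. E2f1 was the only member lower in both. Few of these genes were also called lower with shRNA in the same set of libraries. Of 28 genes higher under the Foxk1 label, Cdk2 alone (3.57%) was lower with Foxk1 shRNA, while 36.6% of all genes higher there were. Of the 22 higher with Foxk2, 5 were lower with Foxk2 shRNA (22.7%), namely Gins1, Pcna, Ccne2, Cdk2 and Cenpe, against 45.2% of all genes. These shares are descriptions and were not tested against each other.

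Gene positions below are those of the GENCODE annotation of GRCm38. Among the licensing and fork genes, subunits of one helicase moved differently. The MCM helicase is a ring of Mcm2 to Mcm7 in equal parts, but the mRNAs stood at unequal levels, from 11.1 RPKM for Mcm7 and 6.90 for Mcm4 over all libraries to 3.76 for Mcm2, 2.70 for Mcm3, 2.55 for Mcm6 and 1.64 for Mcm5. In the libraries labelled Foxk1 overexpression the subunits at the lower levels rose, by log2 fold changes of 0.34 (Mcm3) to 0.73 (Mcm5). Mcm7 (ENSMUSG00000029730.16, chromosome 5, 138164583 to 138172422, minus strand) did not pass there and Mcm4 (ENSMUSG00000022673.4, chromosome 16, 15623897 to 15637400, minus strand) fell. With Foxk2 overexpression Mcm3, Mcm5 and Mcm6 rose by 0.23 to 0.43, Mcm2 and Mcm4 did not pass (0.10 ± 0.0967 and -0.16 ± 0.0657, SE), and Mcm7 fell.

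Mcm7 stood at 13.0 and 12.5 RPKM in the Foxk2 empty vector controls and 7.85 and 8.08 RPKM with Foxk2 overexpression, a fold change on the log2 scale of -0.65 ± 0.0458, SE, adjusted p = 1.79e-08. No other group came near those 2 libraries, since the other 18 lay between 10.6 and 13.1 RPKM. Mcm7 hosts the microRNAs Mir25 and Mir93, and 8.7% of its exon bases lie opposite Cops6 and Ap4m1. Foxk1 shRNA libraries stood at 11.04, 11.2 and 11.6 RPKM against 11.1, 11.02 and 11.7 RPKM, with a log2 fold change of -0.00153 ± 0.0374 (SE).

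Mcm4 stood at 6.72, 6.90 and 7.20 RPKM in the Foxk1-set empty vector controls and 6.64, 5.90 and 6.25 RPKM in the libraries labelled Foxk1 overexpression (-0.14 ± 0.0537, SE, adjusted p = 0.045). That fall is small and was not called when any 1 of 10 libraries was left out (adjusted p = 0.0502 to 0.185), including control replicates 2 and 3 and overexpression replicates 2 and 3. It was not called either without a filter on low values, after quantile normalization, with voom on recovered reads or after correction for length and GC content (adjusted p = 0.0725 to 0.105). Under Foxk1 shRNA it rose to 8.64, 8.57 and 8.64 RPKM from 7.03, 6.93 and 7.63 RPKM (0.25 ± 0.0537, SE, adjusted p = 0.00208), with no overlap. The difference between these effects, -0.38 ± 0.0759, SE, adjusted p = 0.000551, passed the test. In the Foxk2 set the same signs were seen below the threshold, with -0.16 for overexpression and 0.15 for shRNA.

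Gins1 (ENSMUSG00000027454.10, chromosome 2, 150905400 to 150931280, plus strand), a subunit of the GINS complex that joins the active helicase, moved in opposite directions with Foxk2. It stood at 1.92 and 2.28 RPKM in the empty vector controls and 4.07 and 3.89 RPKM with Foxk2 overexpression (0.79 ± 0.125, SE, adjusted p = 8.24e-05). With Foxk2 shRNA it stood at 2.23 and 1.87 RPKM against 3.71 and 3.53 RPKM (-0.70 ± 0.125, SE, adjusted p = 0.000435). Neither pair of groups overlapped, and the scrambled controls averaged 1.72 times the level of the empty vector controls. In the libraries labelled Foxk1 overexpression Gins1 stood at 5.02, 6.24 and 5.24 RPKM against 3.41, 3.08 and 3.34 RPKM (0.66 ± 0.102, SE, adjusted p = 6.2e-05), and with Foxk1 shRNA the log2 fold change of -0.22 ± 0.102 (SE) did not pass.

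Cdc45 (ENSMUSG00000000028.14, chromosome 16, 18780447 to 18811987, minus strand) activates the helicase together with GINS and fell in both knockdowns. It stood at 4.64, 4.51 and 4.89 RPKM in the Foxk1-set scrambled controls and 3.70, 3.42 and 4.23 RPKM with Foxk1 shRNA (-0.28 ± 0.0804, SE, adjusted p = 0.0134). With Foxk2 shRNA it stood at 6.76 and 6.72 RPKM against 8.75 and 10.0 RPKM (-0.45 ± 0.0984, SE, adjusted p = 0.00219). All 5 shRNA libraries lay below their own controls. The Foxk1 call was lost without control replicate 3 (-0.25, adjusted p = 0.0513), without knockdown replicate 2 (-0.22, adjusted p = 0.0695) and with voom on recovered reads (-0.31, adjusted p = 0.0504). In the overexpression comparisons Cdc45 did not pass (-0.16 ± 0.0804 and 0.04 ± 0.0984, SE), and 6.0% of its exon bases lie opposite Ufd1.

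Pcna (ENSMUSG00000027342.14, chromosome 2, 132249162 to 132253314, minus strand), the clamp, was the most abundant member. It stood at 25.9, 25.3 and 25.1 RPKM in the empty vector controls of the Foxk1 set and 30.3, 31.6 and 30.0 RPKM under the Foxk1 label (0.26 ± 0.0296, SE, adjusted p = 2.51e-06). Foxk2 overexpression libraries stood at 12.6 and 13.1 RPKM against 11.8 and 11.9 RPKM (0.11 ± 0.0363, SE, adjusted p = 0.0229), and with Foxk2 shRNA at 11.03 and 11.3 RPKM against 12.6 and 12.1 RPKM (-0.14 ± 0.0363, SE, adjusted p = 0.00715). These changes are small but the groups did not overlap, whereas with Foxk1 shRNA, at 20.4, 21.2 and 21.2 RPKM against 21.3, 20.8 and 20.6 RPKM, they did. The Foxk2 calls are fragile: removal of a length and GC trend ended both (0.03, adjusted p = 0.583, and -0.08, adjusted p = 0.0906) and voom ended the rise (0.11, adjusted p = 0.0667). The rise was also lost without either overexpression control or without overexpression replicate 2 (adjusted p = 0.0618 to 0.175), and the fall without knockdown replicate 1 or its control replicate 1 (adjusted p = 0.0616 and 0.0834). In sequence, 51.4% of the Pcna transcript matches Pcna-ps2, a pseudogene, at 98% identity or more, so its reads may be split.

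Of the remaining licensing genes, Cdt1, which loads the helicase with Cdc6, rose under the Foxk1 label (0.50 ± 0.124, SE, adjusted p = 0.00333) and passed in no other comparison. Gins2 passed nowhere. Cdc6, untested, averaged 0.156 ± 0.0396 RPKM in the Foxk1-set empty vector controls and 0.315 ± 0.0420 RPKM under the Foxk1 label, on 10 to 34 reads a library. With Foxk2 overexpression it went the other way, at 0.0985 and 0.0975 RPKM against 0.132 and 0.107 RPKM in the controls, without overlap. With either shRNA its ranges overlapped those of the controls.

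Ribonucleotide reductase makes the deoxynucleotides that replication uses, and its large subunit Rrm1 (ENSMUSG00000030978.10, chromosome 7, 102441695 to 102469771, plus strand) was the only member called higher in all 4 comparisons. It stood at 2.02, 2.01 and 1.90 RPKM in the controls and 3.02, 2.78 and 2.71 RPKM under the Foxk1 label (0.43 ± 0.0499, SE, adjusted p = 3.68e-06). With Foxk1 shRNA it stood at 2.76, 2.59 and 2.81 RPKM against 2.12, 2.27 and 2.30 RPKM (0.24 ± 0.0499, SE, adjusted p = 0.00146), and with Foxk2 overexpression at 2.80 and 2.91 RPKM against 1.82 and 1.93 RPKM (0.50 ± 0.0611, SE, adjusted p = 6.31e-06). All manipulated libraries thus lay above their own controls in these comparisons. With Foxk2 shRNA the gap was narrow, 2.17 and 2.26 RPKM against 1.88 and 1.96 RPKM (0.17 ± 0.0611, SE, adjusted p = 0.0483). That last call was lost when any 1 of 15 libraries was left out (adjusted p = 0.0521 to 0.212), and after quantile normalization (0.07, adjusted p = 0.465) and under 6 other settings (adjusted p = 0.0525 to 0.178). The Foxk1 shRNA rise missed the threshold after correction for length and GC content (0.12, adjusted p = 0.0525).

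The small subunit Rrm2 (ENSMUSG00000020649.11, chromosome 12, 24708241 to 24714146, plus strand), whose level follows S phase in cycling cells, rose in both overexpression comparisons. It stood at 2.63, 1.84 and 2.34 RPKM against 1.29, 0.979 and 0.961 RPKM under the Foxk1 label (0.81 ± 0.149, SE, adjusted p = 0.000335). Under Foxk2 overexpression the level was 1.58 and 1.46 RPKM against 0.749 and 0.686 RPKM (0.73 ± 0.183, SE, adjusted p = 0.00383). The means were 2.11 and 2.12 times those of the controls, with no overlap. In the knockdowns the log2 fold changes of -0.07 ± 0.149 and -0.16 ± 0.183 (SE) did not pass. Thymidine kinase Tk1 rose under the Foxk1 label (0.45 ± 0.0828, SE, adjusted p = 0.000361) and thymidylate synthase Tyms passed nowhere.

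The cyclins and CDKs did not move as one group. Cyclin A2 and the B cyclins, which act in S phase and mitosis, rose in both overexpression comparisons, while cyclin E1 passed nowhere and Cdk1 neither. Ccnb2 (ENSMUSG00000032218.6, chromosome 9, 70407692 to 70421547, minus strand) stood at 1.35, 1.27 and 1.49 RPKM in the controls and 3.51, 2.66 and 3.66 RPKM under the Foxk1 label (1.01 ± 0.162, SE, adjusted p = 9.67e-05). With Foxk2 overexpression it stood at 1.06 and 1.10 RPKM against 0.610 and 0.404 RPKM (0.66 ± 0.198, SE, adjusted p = 0.0132), a call lost without control replicate 2 (0.51, adjusted p = 0.121) or overexpression replicate 2 (0.64, adjusted p = 0.0628). Ratios of means were 2.39 and 2.13. With either shRNA Ccnb2 did not pass, and the groups overlapped.

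Ccna2 rose by 0.80 ± 0.0841 under the Foxk1 label and by 0.85 ± 0.103 with Foxk2 overexpression (log2, SE, adjusted p = 1.11e-06 and 6.11e-06), and its mean was 1.98 and 3.02 times that of the controls. For Ccnb1 the values were 0.73 ± 0.0875 and 0.46 ± 0.107 (adjusted p = 5.1e-06 and 0.00226), although 51.9% of its transcript matches Ccnb1-ps and Gm12856 at 98% identity or more. Cdc25c, which activates Cdk1, rose with Foxk2 overexpression (0.48 ± 0.181, SE, adjusted p = 0.0424) on 5 to 24 reads a library. Cdk1 itself averaged 2.53 ± 0.362 and 2.52 ± 0.0589 RPKM in controls and libraries labelled Foxk1 overexpression, and 2.14 ± 0.0657 and 1.95 ± 0.357 RPKM for Foxk2, while its partner cyclins rose. Of the exon bases of Ccna2, 12.5% lie opposite Exosc9, and of those of Cdc25c, 12.7% lie opposite Gm3550.

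Ccne1 (ENSMUSG00000002068.16, chromosome 7, 38097984 to 38107534, minus strand), the G1/S cyclin, stood at 1.68, 1.76 and 1.18 RPKM in the Foxk1-set empty vector controls and 1.49, 1.37 and 1.73 RPKM under the Foxk1 label (0.00116 ± 0.115, SE, adjusted p = 1). Foxk1 shRNA libraries stood at 2.96, 3.93 and 3.08 RPKM against 3.83, 3.16 and 3.86 RPKM (-0.11 ± 0.115, SE, adjusted p = 0.497). These groups overlapped in both comparisons, and the step between the 2 kinds of control exceeded either effect. Foxk2 overexpression libraries stood at 2.18 and 2.32 RPKM against 1.70 and 1.91 RPKM (0.26 ± 0.141, SE, adjusted p = 0.161), and with Foxk2 shRNA at 2.51 and 2.48 RPKM against 2.76 and 2.88 RPKM (-0.15 ± 0.141, SE, adjusted p = 0.492). In the Foxk2 set the ranges were apart, up and down respectively, but neither passed the test.

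Its paralogue Ccne2 (ENSMUSG00000028212.16, chromosome 4, 11191351 to 11204779, plus strand) fell in both knockdowns. It stood at 2.47, 2.60 and 2.63 RPKM with Foxk1 shRNA against 2.84, 3.21 and 3.25 RPKM (-0.23 ± 0.0598, SE, adjusted p = 0.00674), and at 1.58 and 1.44 RPKM with Foxk2 shRNA against 1.89 and 1.89 RPKM (-0.25 ± 0.0732, SE, adjusted p = 0.0148). Under Foxk2 overexpression the level was 1.63 and 1.85 RPKM against 1.47 and 1.42 RPKM (0.20 ± 0.0732, SE, adjusted p = 0.0344), and under the Foxk1 label controls and treated libraries overlapped (-0.000412 ± 0.0598, SE). The Foxk2 calls rest on few libraries: the rise was lost without either control or without overexpression replicate 2 (adjusted p = 0.0734 to 0.284) and under 5 other settings (adjusted p = 0.0521 to 0.253). The fall was lost without either control or without knockdown replicate 2 (adjusted p = 0.0619 to 0.125). Of its exon bases, 17.4% lie opposite Ints8.

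Cdk2 (ENSMUSG00000025358.15, chromosome 10, 128697939 to 128705031, minus strand), the kinase partner of cyclins E and A, was the only member called in all 4 comparisons with one sign in both overexpression comparisons and the other in both shRNA comparisons, where overexpression is a name only for Foxk1. Under the Foxk1 label it stood at 12.6, 12.3 and 13.9 RPKM against 10.3, 10.1 and 9.99 RPKM (0.34 ± 0.0412, SE, adjusted p = 5.76e-06), and with Foxk1 shRNA at 6.85, 6.90 and 7.07 RPKM against 8.08, 8.62 and 7.91 RPKM (-0.23 ± 0.0412, SE, adjusted p = 0.000489). With Foxk2 overexpression it stood at 14.95 and 14.999 RPKM against 10.9 and 10.7 RPKM (0.45 ± 0.0504, SE, adjusted p = 2.41e-06), and with Foxk2 shRNA at 10.6 and 10.2 RPKM against 13.2 and 12.9 RPKM (-0.31 ± 0.0504, SE, adjusted p = 0.000167). No treated group overlapped its control. The overexpression-label and shRNA effects differed in the Foxk1 set by 0.56 ± 0.0582, SE, adjusted p = 8.25e-07 and in the Foxk2 set by 0.77 ± 0.0713, SE, adjusted p = 2.62e-07. The calls held in all 4 comparisons with each library left out and under every alternative run.

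Among the transcription factors, E2f1 (ENSMUSG00000027490.17, chromosome 2, 154559407 to 154569892, minus strand), an activator of S-phase genes, fell in both overexpression comparisons. It stood at 6.88, 6.81 and 8.43 RPKM in the controls and 5.13, 5.79 and 5.97 RPKM under the Foxk1 label (-0.36 ± 0.0755, SE, adjusted p = 0.00105), and at 6.17 and 5.97 RPKM with Foxk2 overexpression against 9.62 and 9.45 RPKM (-0.61 ± 0.0925, SE, adjusted p = 5.59e-05). Every overexpression library lay below every one of its controls. Under Foxk1 shRNA the level was 8.40, 7.58 and 8.66 RPKM against 7.75, 8.29 and 7.78 RPKM, and with Foxk2 shRNA it was 10.0 and 9.67 RPKM against 8.78 and 9.91 RPKM. Both shRNA groups overlapped their controls, and their log2 fold changes were 0.04 ± 0.0755 and 0.07 ± 0.0925 (SE).

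Foxm1 (ENSMUSG00000001517.14, chromosome 6, 128362967 to 128376146, plus strand), a forkhead activator of mitotic genes, stood at 0.649, 0.552 and 0.787 RPKM in the controls and 1.17, 0.800 and 0.881 RPKM under the Foxk1 label (0.32 ± 0.109, SE, adjusted p = 0.0261). The ranges were narrowly apart, and the call was lost without overexpression replicate 1 (0.21, adjusted p = 0.138), control replicate 2 (0.25, adjusted p = 0.108) or control replicate 1 (0.31, adjusted p = 0.0612), without a filter on low values (adjusted p = 0.0565) and in a model of the Foxk1 set alone (adjusted p = 0.0636). With Foxk1 shRNA it stood at 1.38, 1.43 and 1.87 RPKM against 1.255, 1.29 and 1.09 RPKM (0.26 ± 0.109, SE, adjusted p = 0.0769), with Foxk2 overexpression at 0.979 and 0.880 RPKM against 0.875 and 0.785 RPKM (0.10 ± 0.134, SE, adjusted p = 0.595) and with Foxk2 shRNA at 0.947 and 0.871 RPKM against 0.713 and 0.799 RPKM (0.17 ± 0.134, SE, adjusted p = 0.401). All 4 treated groups lay above their controls, and only the first passed. E2f3 and Mybl2 (B-Myb) passed nowhere, and E2f2, untested, averaged 0.143 RPKM over all libraries.

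Of the chromosome proteins, Mki67 (ENSMUSG00000031004.8, chromosome 7, 135689784 to 135716361, minus strand), which coats mitotic chromosomes and marks cycling cells, rose in both overexpression comparisons. It stood at 0.821, 0.688 and 0.747 RPKM in the controls and 1.83, 1.498 and 1.86 RPKM under the Foxk1 label (0.83 ± 0.0767, SE, adjusted p = 2.91e-07). Foxk2 overexpression libraries stood at 0.734 and 0.722 RPKM against 0.280 and 0.186 RPKM (0.75 ± 0.0940, SE, adjusted p = 8.57e-06). On the RPKM scale these are 2.30 and 3.12 times the control means, and the log2 values understate the second because its controls lie under the pseudocount. Foxk1 shRNA libraries stood at 1.43, 1.45 and 1.53 RPKM against 1.30, 1.39 and 1.37 RPKM (0.09 ± 0.0767, SE, adjusted p = 0.42), and with Foxk2 shRNA at 0.124 and 0.130 RPKM against 0.230 and 0.212 RPKM (-0.20 ± 0.0940, SE, adjusted p = 0.116). Both shRNA groups were clear of their controls, above them for Foxk1 and below them for Foxk2 on 39 to 79 reads a library, but neither passed the test.

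Topoisomerase II alpha (Top2a), which untangles replicated chromosomes, rose under the Foxk1 label (0.73 ± 0.0943, SE, adjusted p = 1.13e-05) and with Foxk2 shRNA (0.40 ± 0.116, SE, adjusted p = 0.013). Its means in the latter were 0.590 ± 0.0385 and 0.945 ± 0.167 RPKM. With Foxk2 overexpression (0.26 ± 0.116, SE, adjusted p = 0.0864) and Foxk1 shRNA (0.20 ± 0.0943, adjusted p = 0.114) it did not pass. The shRNA rise was not called without knockdown replicate 2, without its control replicate 1 or in a model of the Foxk2 set alone.

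The 9 mitotic kinase, checkpoint and spindle genes moved together under the Foxk1 label, where all rose, by log2 fold changes of 0.47 (Bub1) to 1.20 (Plk1) with a median of 0.73. With Foxk2 overexpression 6 rose (Plk1, Aurka, Bub1, Bub1b, Cdc20 and Kif20a), with a median of 0.41 over the 9. The other 3 (Aurkb, Birc5 and Kif11) had log2 fold changes of 0.24 to 0.41 and did not pass, though all 9 had treated ranges above their controls, where 36.2% of all genes did so. In each knockdown 0 of the 9 passed by limma, with medians of 0.11 for Foxk1 and -0.13 for Foxk2. At an unadjusted p under 0.05 the count was 1 for Foxk1 (Kif11) and 0 for Foxk2, where 7037 and 6637 of all 15981 genes had it.

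Plk1 (ENSMUSG00000030867.7, chromosome 7, 122159439 to 122169873, plus strand), the polo-like kinase that drives mitotic entry and exit, had the largest log2 fold change of any member under the Foxk1 label. It stood at 0.849, 0.840 and 0.872 RPKM in the controls and 2.80, 2.66 and 2.38 RPKM there (1.20 ± 0.108, SE, adjusted p = 2.3e-07), a ratio of means of 3.06. Under Foxk2 overexpression the level was 0.881 and 0.942 RPKM against 0.402 and 0.368 RPKM (0.67 ± 0.133, SE, adjusted p = 0.000618), a ratio of 2.37. The controls were tight in both, and no library overlapped. With Foxk1 shRNA (1.56, 1.79 and 2.50 RPKM against 1.84, 1.84 and 1.62 RPKM) the groups overlapped, and with Foxk2 shRNA (0.290 and 0.395 RPKM against 0.280 and 0.232 RPKM) they were barely apart, and neither passed. Of the Plk1 exon bases, 7.1% lie opposite Gm44985.

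Cdc20 (ENSMUSG00000006398.15, chromosome 4, 118432901 to 118437352, minus strand), which activates the anaphase-promoting complex, stood at 2.63, 1.36 and 2.25 RPKM in the controls and 4.70, 3.78 and 4.31 RPKM under the Foxk1 label (0.91 ± 0.157, SE, adjusted p = 0.000174). With Foxk2 overexpression it stood at 2.19 and 1.67 RPKM against 1.140 and 1.12 RPKM (0.57 ± 0.192, SE, adjusted p = 0.024). That rise was lost without either control or without overexpression replicate 1 (adjusted p = 0.0776 to 0.187) and without a filter on low values (adjusted p = 0.0525). The motor Kif20a, with 29.3% of its exon bases opposite Cdc23, the kinases Aurka and Aurkb, the checkpoint kinases Bub1 and Bub1b, the chromosomal passenger Birc5 and the spindle motor Kif11 rose under the Foxk1 label to 1.78 to 2.29 times the control mean.

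Cenpa (ENSMUSG00000029177.9, chromosome 5, 30666777 to 30674830, plus strand), the histone variant that marks centromeres, had the largest log2 fold change with Foxk2 overexpression. It stood at 0.274 and 0.223 RPKM in the controls and 1.31 and 0.962 RPKM with Foxk2 overexpression (1.12 ± 0.119, SE, adjusted p = 1.44e-06), a ratio of means of 4.57. Under the Foxk1 label it stood at 1.57, 1.48 and 1.28 RPKM against 0.537, 0.483 and 0.618 RPKM (0.89 ± 0.0969, SE, adjusted p = 1.67e-06), a ratio of 2.65. The overexpression libraries of both sets thus overlapped in level although their controls did not. With Foxk2 shRNA it stood at 0.152 and 0.128 RPKM against 0.290 and 0.262 RPKM (-0.28 ± 0.119, SE, adjusted p = 0.0887), apart from the controls but short of the threshold, and with Foxk1 shRNA the groups overlapped.

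Cenpe, a kinetochore motor, rose under the Foxk1 label (0.80 ± 0.0921, SE, adjusted p = 3.13e-06) and with Foxk2 overexpression (0.51 ± 0.113, SE, adjusted p = 0.0015) and fell with Foxk2 shRNA from 0.408 and 0.467 RPKM to 0.185 and 0.205 RPKM (-0.43 ± 0.113, SE, adjusted p = 0.00739). That fall was not called without scrambled control replicate 2. Cenpf, untested, averaged 0.177 ± 0.0407 and 0.357 ± 0.0638 RPKM in controls and libraries labelled Foxk1 overexpression, and 0.0560 ± 0.000682 and 0.158 ± 0.0313 RPKM in those of Foxk2 overexpression. It stood at 0.0712 ± 0.00944 and 0.0276 ± 0.00187 RPKM for Foxk2 shRNA. Its ranges were apart in these 3 comparisons. With Foxk1 shRNA its mean was higher, at 0.364 ± 0.0164 RPKM against 0.306 ± 0.0304 RPKM in the scrambled controls.

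**Figure D4:**
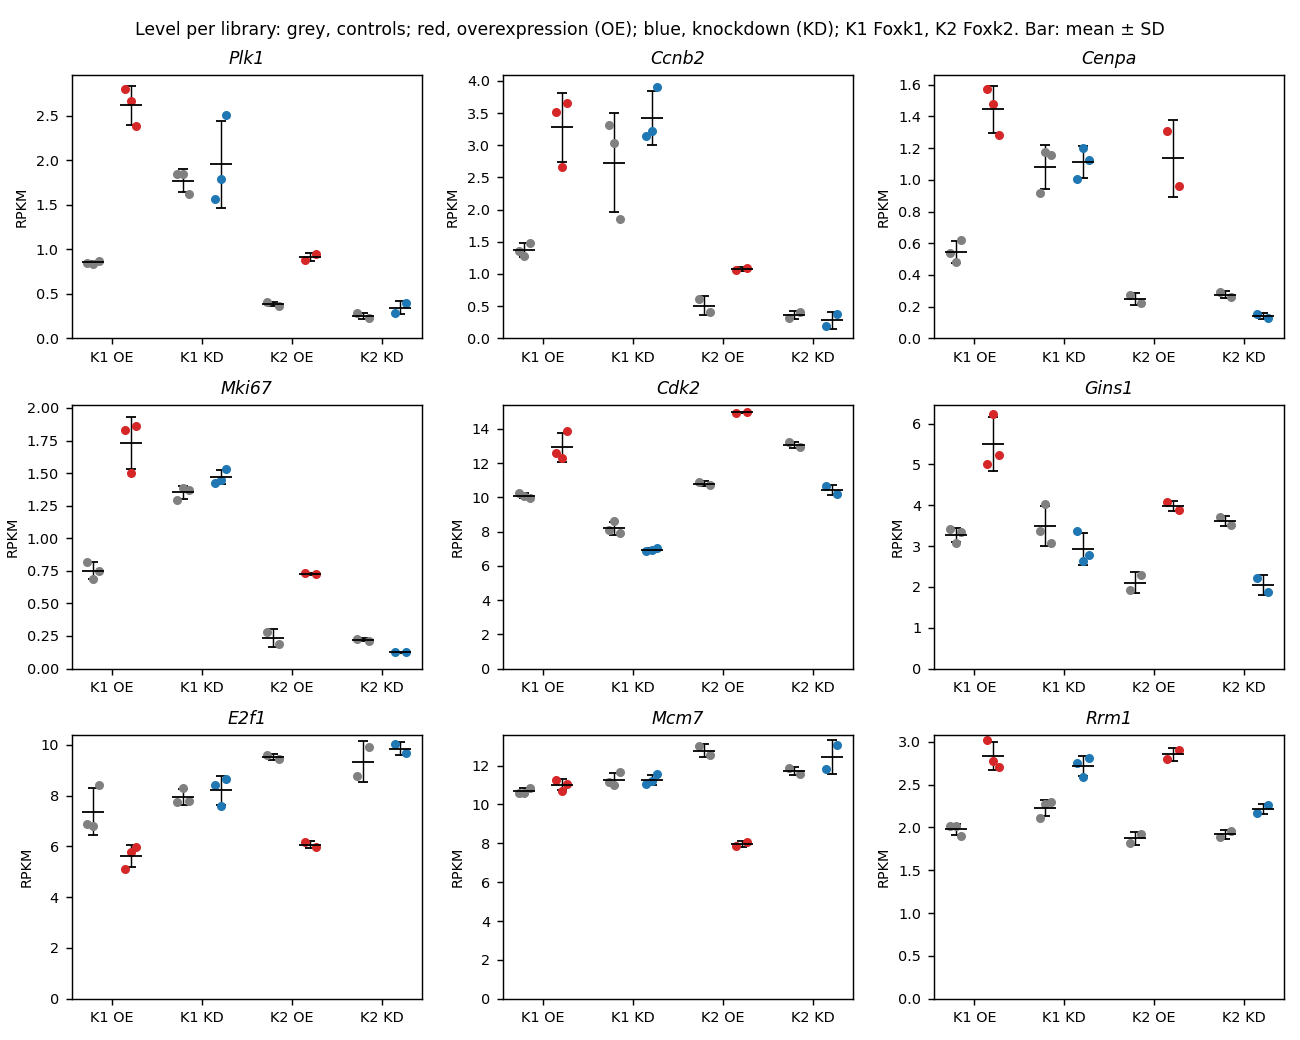
Level of 9 genes in each library (RPKM, linear axes from 0), with controls in grey, overexpression in red and knockdown in blue, and bars for the mean ± SD of each group (3 libraries in the Foxk1 set, 2 in the Foxk2 set). Plk1, Ccnb2, Cenpa and Mki67 stand above their controls in both overexpression comparisons, Cdk2 moves in opposite directions in the overexpression-label and shRNA comparisons, and E2f1 falls in both overexpression comparisons.

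The effects under the Foxk1 label and with Foxk2 overexpression differed for 6 of 40 members, all with the higher log2 fold change under the Foxk1 label, where 25.1% of all genes differed and 11.6% were higher in that direction. They were Mcm7 (0.69 ± 0.0591, SE, adjusted p = 1.3e-06), Plk1 (0.53 ± 0.171, SE, adjusted p = 0.0349), Top2a (0.47 ± 0.149, SE, adjusted p = 0.0304), Tk1 (0.41 ± 0.131, SE, adjusted p = 0.0318), Mcm2 (0.36 ± 0.125, SE, adjusted p = 0.0444) and Pcna (0.15 ± 0.0469, SE, adjusted p = 0.0246). The count was 1 without Foxk2 overexpression replicate 1 or Foxk2 control replicate 1, and 3 without Foxk2 control replicate 2 or Foxk1 overexpression replicate 1. This contrast crosses the sets of libraries. The knockdown effects of Foxk1 and Foxk2 differed for 0 of 40 members by limma, and for 14.3% of all genes. At an unadjusted p under 0.05 there were 5 (Pcna, Gins1, Cenpe, Kif11 and Mki67), and 4426 of all 15981 genes. Voom on recovered reads called 3 members, so equal effects are not shown.

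Overexpression and knockdown effects differed within each set for more members, as they did for more of all genes. In the Foxk2 set the count in either direction was near the share of all genes. In the Foxk1 set 28 of 40 differed, 25 with the higher value under the overexpression label and 3 with the lower (E2f1, Mcm4 and Gins2), against 49.6% of all genes, with 23.8% higher and 25.7% lower. In the Foxk2 set 21 of 40 differed, 18 with the higher value in overexpression and 3 with the lower (Mcm7, E2f1 and Mcm4), against 48.2% of all genes, with 23.9% higher and 24.4% lower. The largest of these differences were 1.10 for Plk1 in the Foxk1 set and 1.49 for Gins1 and 1.40 for Cenpa in the Foxk2 set (log2).

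Other genes of the same pathways were listed apart from the 43. Of 41 other replication genes (origin recognition, polymerases, clamp loader, fork protection), 37 were tested: 22 rose and 1 fell under the Foxk1 label, 15 rose and 2 fell with Foxk2 overexpression, 3 rose and 4 fell with Foxk1 shRNA, and 1 rose and 10 fell with Foxk2 shRNA. Their median log2 fold changes were 0.21, 0.18, -0.00653 and -0.12 in that order. Over all genes tested, 24.1% were higher and 23.8% lower under the Foxk1 label, 23.0% and 22.0% with Foxk2 overexpression, 20.4% and 15.5% with Foxk1 shRNA, and 18.0% and 15.7% with Foxk2 shRNA. Uhrf1, which brings DNA methylation to newly copied strands, stood at 0.669 and 0.658 RPKM in the Foxk2 empty vector controls and 5.06 and 5.45 RPKM with Foxk2 overexpression (2.30 ± 0.103, SE, adjusted p = 1.55e-10). Under the Foxk1 label it stood at 2.43, 2.39 and 2.45 RPKM against 0.914, 0.840 and 1.18 RPKM (0.99 ± 0.0842, SE, adjusted p = 1.13e-07). Both shifts left no overlap, and the shRNA groups did not pass (0.01 ± 0.0842 and -0.07 ± 0.103, SE).

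The clamp loader subunit Rfc1 changed in all 4 comparisons, with one sign in the overexpression comparisons and the other with shRNA: it rose by 0.19 ± 0.0407 under the Foxk1 label and 0.36 ± 0.0499 with Foxk2 overexpression, and its values with shRNA were -0.17 ± 0.0407 for Foxk1 and -0.50 ± 0.0499 for Foxk2 (log2, SE, adjusted p = 0.00127, 2.13e-05, 0.00444 and 1.57e-06). The origin recognition subunit Orc2 did likewise, with 0.26, 0.18, -0.22 and -0.23 (adjusted p = 0.000599, 0.03, 0.00311 and 0.00774). Dut, which clears dUTP, rose by 0.44 and 0.44 in the overexpression comparisons and was lower with Foxk2 shRNA (-0.33 ± 0.0603, SE, adjusted p = 0.000551). Rfc2 (0.60 ± 0.0590, SE, adjusted p = 6.09e-07) had one of the 3 smallest p-values under the Foxk1 label, and the fork protection partner Tipin (0.67 ± 0.0696, SE, adjusted p = 1.21e-06) and Rfc4 (0.98 ± 0.116, SE, adjusted p = 4.3e-06) had it with Foxk2 overexpression. Orc5 (-0.40 ± 0.0608, SE, adjusted p = 9.06e-05) had it with Foxk2 shRNA, and Pola2, a subunit of the primase polymerase (0.28 ± 0.0732, SE, adjusted p = 0.00724), with Foxk1 shRNA.

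Of 50 other mitosis genes, 43 were tested: 34 rose and 1 fell under the Foxk1 label, 24 rose and 2 fell with Foxk2 overexpression, 5 rose and 3 fell with Foxk1 shRNA, and 2 rose and 4 fell with Foxk2 shRNA. Their medians were 0.40, 0.33, 0.10 and -0.09. The shares of all genes higher and lower were 24.1% and 23.8%, 23.0% and 22.0%, 20.4% and 15.5%, and 18.0% and 15.7% in the same order. Anln, the actin-binding anillin of the cleavage furrow, moved in opposite directions in the overexpression-label and shRNA comparisons of both sets. It stood at 3.09 and 2.74 RPKM in the controls and 7.94 and 8.46 RPKM with Foxk2 overexpression (1.35 ± 0.0857, SE, adjusted p = 5.39e-09), and at 2.11 and 1.79 RPKM with Foxk2 shRNA against 4.76 and 5.14 RPKM (-1.16 ± 0.0857, SE, adjusted p = 6.33e-08). Under the Foxk1 label the log2 fold change was 0.42 ± 0.0700, SE, adjusted p = 0.000129, and with Foxk1 shRNA it was -0.57 ± 0.0700, SE, adjusted p = 1.13e-05. The checkpoint protein Bub3 rose by 0.27 and 0.57 in the overexpression comparisons and was lower with Foxk2 shRNA (-0.27 ± 0.0464, SE, adjusted p = 0.000347).

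Further genes with the smallest p-values among the mitosis genes were the spindle midzone protein Prc1 (0.65 ± 0.0823, SE, adjusted p = 9.57e-06) and the cytokinesis regulator Racgap1 (0.60 ± 0.0789, SE, adjusted p = 1.24e-05) under the Foxk1 label, and the condensin subunit Smc4 (0.58 ± 0.0791, SE, adjusted p = 1.86e-05) with Foxk2 overexpression. With Foxk1 shRNA they were Wee1, the kinase that restrains Cdk1 (-0.36 ± 0.0663, SE, adjusted p = 0.000475), and Ckap2 (0.53 ± 0.119, SE, adjusted p = 0.00236), and with Foxk2 shRNA the spindle assembly factor Tpx2 (0.45 ± 0.0793, SE, adjusted p = 0.000357). Tpx2 rose in all 4 comparisons, like Rrm1, with 0.43, 0.23 and 0.33 in the others. That pattern was noticed after its values were seen.

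The 15 regulators of the Rb, E2F and DREAM system, which hold these genes silent or release them, were listed too. Of 13 tested, 3 rose and 2 fell under the Foxk1 label, 3 rose and 0 fell with Foxk2 overexpression, 2 rose and 3 fell with Foxk1 shRNA, and 1 rose and 3 fell with Foxk2 shRNA. Among all genes 24.1% rose and 23.8% fell, 23.0% rose and 22.0% fell, 20.4% rose and 15.5% fell, and 18.0% rose and 15.7% fell in that order, so the 3 rises in each overexpression comparison are near the share of all genes and no result about these regulators. The limma count of 0 falls with Foxk2 overexpression stands beside 3 genes at an unadjusted p under 0.05, all called higher. Of all 15981 genes tested, 8023 had an unadjusted p under 0.05 there. Lin9, a core subunit of the MuvB complex, stood at 0.942, 1.00 and 0.978 RPKM in the controls and 1.47, 1.35 and 1.62 RPKM under the Foxk1 label (0.42 ± 0.0761, SE, adjusted p = 0.000266), and rose with Foxk2 overexpression (0.60 ± 0.0932, SE, adjusted p = 6.66e-05) and fell with Foxk2 shRNA (-0.37 ± 0.0932, SE, adjusted p = 0.00569). Rbl2 (p130), the pocket protein of resting cells, fell under the Foxk1 label (-0.39 ± 0.0402, SE, adjusted p = 1.09e-06), as did Tfdp2, a partner of E2F factors (-0.38 ± 0.0682, SE, adjusted p = 0.000264). Lin52, another MuvB subunit, rose with Foxk2 overexpression (0.41 ± 0.0938, SE, adjusted p = 0.00216) and fell with Foxk1 shRNA (-0.22 ± 0.0766, SE, adjusted p = 0.0321), E2f6 rose with Foxk2 overexpression (0.18 ± 0.0653, SE, adjusted p = 0.0332), and Lin54 rose (0.31 ± 0.0567, SE, adjusted p = 0.000455) and Rb1 fell (-0.20 ± 0.0696, SE, adjusted p = 0.0315) with Foxk1 shRNA. With Foxk2 shRNA E2f4 rose (0.23 ± 0.0666, SE, adjusted p = 0.0144) and Rbl1 (p107) fell (-0.26 ± 0.0868, SE, adjusted p = 0.032).

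The D cyclins and CDK inhibitors, which stand upstream of Rb, had members called in each direction. Of 12, 11 were tested: 2 rose and 4 fell under the Foxk1 label, 3 rose and 5 fell with Foxk2 overexpression, 6 rose and 2 fell with Foxk1 shRNA, and 6 rose and 3 fell with Foxk2 shRNA. The shares of all genes that rose and fell were 24.1% and 23.8%, 23.0% and 22.0%, 20.4% and 15.5%, and 18.0% and 15.7%, so the rises in the overexpression comparisons are near those of all genes. Cyclin D1 (Ccnd1), which carries growth signals to Cdk4 and Cdk6, stood at 16.4, 14.7 and 15.7 RPKM in the controls and 7.17, 6.75 and 6.89 RPKM under the Foxk1 label (-1.11 ± 0.0510, SE, adjusted p = 1.08e-10). Under Foxk1 shRNA the level was 27.0, 25.8 and 27.9 RPKM against 12.9, 12.4 and 11.7 RPKM (1.09 ± 0.0510, SE, adjusted p = 5.78e-10). Foxk2 overexpression libraries stood at 4.35 and 4.06 RPKM against 9.48 and 8.86 RPKM (-1.04 ± 0.0624, SE, adjusted p = 3.09e-09), and with Foxk2 shRNA at 14.1 and 12.9 RPKM against 5.94 and 6.11 RPKM (1.10 ± 0.0624, SE, adjusted p = 4.88e-09). Treated means were 0.446, 2.18, 0.459 and 2.24 times those of the controls in that order, without overlap, and cyclin D1 fell in the overexpression comparisons, where Ccna2, Ccnb1 and Ccnb2 rose.

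The CDK inhibitor p21 (Cdkn1a) did the reverse of cyclin D1. It stood at 98.5, 108 and 102 RPKM in the controls and 205, 219.6 and 215 RPKM under the Foxk1 label (1.05 ± 0.0503, SE, adjusted p = 1.72e-10), and at 178 and 179.8 RPKM with Foxk2 overexpression against 111 and 115 RPKM (0.66 ± 0.0616, SE, adjusted p = 3.61e-07). With Foxk1 shRNA it stood at 45.3, 41.2 and 40.2 RPKM against 64.2, 63.8 and 59.1 RPKM (-0.56 ± 0.0503, SE, adjusted p = 4.34e-07), and with Foxk2 shRNA the log2 fold change was -0.37 ± 0.0616, SE, adjusted p = 0.000248. The inhibitor rose in the overexpression comparisons, where 28 and 22 of the 40 tested members rose. Cyclin D3 (Ccnd3) fell with Foxk2 overexpression (-0.76 ± 0.0635, SE, adjusted p = 1.03e-07) and rose with Foxk2 shRNA (0.69 ± 0.0635, SE, adjusted p = 6.62e-07), Ccnd2 fell under the Foxk1 label (-0.44 ± 0.0308, SE, adjusted p = 1.38e-08), the inhibitor Cdkn2c fell with Foxk1 shRNA (-0.49 ± 0.0481, SE, adjusted p = 1.12e-06) and Cdk4 rose with Foxk2 shRNA (0.27 ± 0.0402, SE, adjusted p = 7.77e-05).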

How the data were processed

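RNA-seq of 20 libraries of 3T3-L1 adipocytes was available as 1 table of RPKM values for 48440 genes, deposited by the authors. Per the submitters' processing notes, mm10, HISAT2 2.1.0, Picard 1.141, featureCounts of Subread 1.5.1 and edgeR were used. The strand setting is not given in the sources used here. Columns were matched to samples by name, and 0 columns of per-sample values lacked a sample.

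Multiplying each RPKM by the GENCODE exon length gave whole reads (within 0.1 read) for 100% of values of genes whose identifier matched with its version. The size of 1 read among those genes gave the depths in the text. Of 30145 genes with recovered reads, 5118 took instead the shortest length that made the reads of every library whole. For these genes, whole reads are therefore no check of the length. RPKM + 0.5 was taken to log2, genes with at least 0.5 RPKM in at least 2 libraries were kept (15981), and limma 3.58.1 in R 4.3.3 fitted 8 group means over all 20 libraries with a trended prior variance (12 residual degrees of freedom, two-sided). Benjamini-Hochberg adjustment ran over all genes tested, and a gene was called under 0.05. Effects were compared as contrasts of contrasts. Depth limits genes with few reads, since a member had from 2 to 2083 reads. Copies were found with BLAST+ 2.17.0 (98% identity, 100 bases or more), and promoter windows are from RefSeq, GRCm38.p6.

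The 43 members and the pathway and marker lists were chosen with earlier results of these data known. Values are given library by library for the 6 called members of largest absolute fold change in each comparison (with a mean of at least 1 RPKM in the higher group, where 3 or more had it), the 5 of highest mean, and Mki67, Pcna, E2f1, Ccne1 and Foxm1. Pathway genes named are up to 3 with the smallest p-values per list and comparison, and genes with other patterns were named after their values were seen. Alternatives tried were other filters, pseudocounts, scalings, voom on recovered reads, a one-set model, robust variance, a replicate block, a length and GC trend, and leaving out each library. The steps were also run on simulated counts with the same setting of scatter for all genes and groups. Those runs do not show how the calls fare where groups scatter unequally.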

Additional observations from a re-analysis of the deposited data

Results flagged for a closer look

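For 6 of 40 tested members the effect under the Foxk1 overexpression label differed from the effect of Foxk2 overexpression by the test of the difference itself (limma, Benjamini-Hochberg over all genes tested). Of all genes tested, 25.1% differed and 11.6% had the higher value under the Foxk1 label. The count is thus no result about the members as a set. The differences, Foxk1 label minus Foxk2, were 0.69 for Mcm7 (adjusted p = 1.3e-06), 0.53 for Plk1 (adjusted p = 0.0349), 0.47 for Top2a (adjusted p = 0.0304), 0.41 for Tk1 (adjusted p = 0.0318), 0.36 for Mcm2 (adjusted p = 0.0444) and 0.15 for Pcna (adjusted p = 0.0246), all on the log2 scale. For Mcm7 the sign came from a fall with Foxk2, and for the other 5 from a higher value under the Foxk1 label. The difference also crosses the library sets, and Foxk1 itself was lower in the libraries labelled Foxk1 overexpression.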

How the results depend on the processing

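Of 37 calls of single members given library by library, none turned direction under any alternative run, and 37 stayed called at a pseudocount of 0.1, 36 at a pseudocount of 1, 36 with median-ratio scaling, 35 with quantile normalization, 33 with voom on recovered reads, 32 with no filter on low values and 31 with a length and GC trend removed. Counts of called members moved by over 1.5 times as follows, and the cause was not tested. Under the Foxk1 overexpression label, 1 member in place of 2 was lower with no filter, with quantile normalization, with the length and GC trend removed and at the lowest when a library was left out (1 to 3). With Foxk1 shRNA, 1 in place of 2 was higher with that trend removed, and 2 to 4 when a library was left out. With Foxk2 overexpression, 14 to 23 in place of 22 were higher when a library was left out. With Foxk2 shRNA, 1 in place of 2 was higher with no filter, a pseudocount of 1, quantile normalization, median-ratio scaling, the one-set model and the robust variance, and 0 to 3 when a library was left out. Effects of the overexpression labels differed for 3 in place of 6 members with no filter and for 1 to 7 when a library was left out. Effects of the knockdowns differed for 1 in place of 0 with a filter at a mean of 1 RPKM, for 2 at a pseudocount of 0.1, for 1 with quantile normalization, for 3 with voom, for 1 with a filter at a mean of 20 reads (chosen after seeing the data), and for 0 to 1 when a library was left out. The one-set model gives no value for differences between Foxk1 and Foxk2. With 2 libraries a group, leaving out 1 assumes that the lone library varies like the other groups.

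Replicate numbers are shared between groups but did not pair libraries. With the replicate block, members higher and lower were 27 and 1 under the Foxk1 overexpression label, 3 and 3 with Foxk1 shRNA, 17 and 2 with Foxk2 overexpression, and 1 and 6 with Foxk2 shRNA, and the overexpression effects differed for 3. That fit ended the calls of Foxm1 and Mcm4 under the Foxk1 label, of Mcm6, Pcna, Bub1, Ccne2 and Cdc25c with Foxk2 overexpression, and of Rrm1 with Foxk2 shRNA. Correlations between deviations of libraries from their group means lay within 0.0858 of 0. Reads per gene limit the low members: Cdc25c and Bub1 had under 30 reads in most Foxk2-set libraries, so small changes there were not detectable at this depth.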
